A study of Homo sapiens with 2 samples.

Results

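The 9 genes described here write, copy, read or remove DNA methylation: UHRF1, UHRF2, DNMT1, DNMT3A, DNMT3B, TET2, TET3, MBD2 and MBD4. They were taken by symbol from the 19096 gene symbols of both tables, each by its RefSeq row with the highest mean RPKM (reads per kilobase, corrected for library size) over both libraries. All 9 had a mean RPKM of at least 1 and so belonged to the 10272 expressed genes. Poly(A)+ RNA came from P493-6, a human B cell line labelled as B-cell lymphoma, in which tetracycline represses a c-Myc transgene. In the low c-Myc group (1 library) c-Myc had been released for 0 h, and in the high c-Myc group (1 library) for 24 h. Both groups came from this single line, carried the same transgene and were grown in the same medium with serum, so that the comparison is one of time after release in one line. Each condition is a single library, so there was no replicate against which to judge a difference and no test between conditions was made. In bulk RNA, fewer cells that express a gene and less of its RNA per cell cannot be told apart. The intervals given below are 95% exact (Clopper-Pearson) intervals on approximate reads and cover counting error only.

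Methyl groups on CpG cytosines are lost from the new strand at each round of DNA replication unless they are copied. UHRF1 binds hemimethylated CpG behind the fork and recruits DNMT1, the maintenance methyltransferase, whereas DNMT3A and DNMT3B place new methylation. TET enzymes oxidize 5-methylcytosine, which opens a route back to unmodified cytosine, and TET2 and DNMT3A are often mutated in lymphoid and myeloid malignancies. MBD2 reads methylated CpG for a repressor complex, and MBD4 is a glycosylase that removes thymine from the T:G mismatch left when 5-methylcytosine is deaminated.

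Targeted gene and cell type markers were checked first. MYC had an RPKM of 836 in the low and 2358 in the high c-Myc library. All 8 B cell markers were above an RPKM of 1 in both, from 49.1 to 1336 in the low and from 26.1 to 618 in the high c-Myc library, with sums of 4604 and 1870.2. Of 5 T cell markers, CD3D and CD8A were listed at 0 in both libraries, CD3E stood at 8.30 and 1.5, and the list summed to 11.2 and 1.83. Of 5 myeloid markers, CD14 and CSF1R were under 0.1 in both, while LYZ, CD68 and ITGAM brought the sum to 151 in the low and 35.6 in the high c-Myc library. The 3 fibroblast markers summed to 18.8 and 12.0. Of these, COL1A1 stood at 8.06 and 9.23, PDGFRB at 10.7 and 2.80, and COL1A2 under 0.1 in both. The 3 erythroid markers summed to 0 and 0.165. The part of other cell types in the results below was not tested.

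Upstream sequence of the members was searched because UHRF1 and DNMT1 were both higher at 24 h and MYC itself binds DNA. RefSeq windows from 250 bases before to 50 bases after a start (build GRCh38.p14) were found for all 9 members, 18 windows in all, since a gene can have several starts. The E2F-type words TTTCCCGC, TTTCGCGC, TTTGCCGC and TTTGGCGC, on either strand, were present in 3.30% of 34943 windows of all genes. Among the members they were found in 3 windows, 2 of UHRF1 and the 1 of DNMT1. The E-box CACGTG, the best known MYC and MAX word, was present in 7.23% of all windows and in 4 of the members' windows. Those belonged to TET3, TET2 and DNMT3A, and none to UHRF1 or DNMT1. The words were chosen with the members' values known, and a match describes letters and not binding. Shown are 30 bases around each match with the matched word in capitals.
UHRF1, chr19:4909476-4909505, plus strand, E2F-type word 14 bases before a start: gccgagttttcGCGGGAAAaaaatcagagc
UHRF1, chr19:4909973-4910002, plus strand, E2F-type word 160 bases before another start: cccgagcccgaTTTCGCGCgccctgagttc
DNMT1, chr19:10194937-10194966, minus strand, E2F-type word beginning 2 bases before the start: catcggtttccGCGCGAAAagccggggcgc
TET2, chr4:105145849-105145878, plus strand, E-box 14 bases before a start: ttctactcagccCACGTGgctaaagtaaac
TET3, chr2:73984831-73984860, plus strand, E-box 67 bases before a start: tcggcggggccgCACGTGtgcgccctcccg
TET3, chr2:73984871-73984900, plus strand, E-box 27 bases before the same start: tccccgggcgagCACGTGccgcggtgcgcg
DNMT3A, chr2:25252373-25252402, minus strand, E-box 75 and 127 bases before 2 neighbouring starts: tccagcggggccCACGTGacctggagtcct

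UHRF2, DNMT3B, MBD2 and MBD4 had neither word in their windows. All windows of the members but 1 held at least 13 CpG dinucleotides, against a median of 14 over all windows. The exception was the 1 window listed for DNMT3B, with 3, and any other start of that gene was not searched.

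The maintenance pair UHRF1 and DNMT1 was higher at 24 h, and UHRF2 was lower. UHRF1 had an RPKM of 4.31 in the low and 65.4 in the high c-Myc library, a 15.2-fold higher value (interval 14.4 to 15.9, from about 1732 and 26815 reads). In level it ranked 6934 of the 10272 expressed genes before release and 978 after it, and its log2 ratio of 3.77, on the log2(RPKM + 0.5) scale used for all ratios, ranked 69 from the top. DNMT1 was already abundant at 0 h, with an RPKM of 31.8, and reached 78.5 at 24 h. That is a 2.47-fold higher value (interval 2.43 to 2.51) and a log2 ratio of 1.29, above those of 81.6% of expressed genes. UHRF2, the paralogue of UHRF1, whose protein shares its domains but is not known to replace it in recruiting DNMT1, stood at 33.5 and 16.5. It was 2.03-fold lower in the high c-Myc library (interval 1.97 to 2.10), and its log2 ratio of -1.001 lay at the edge of the 2-fold rule.

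**Figure D1:**
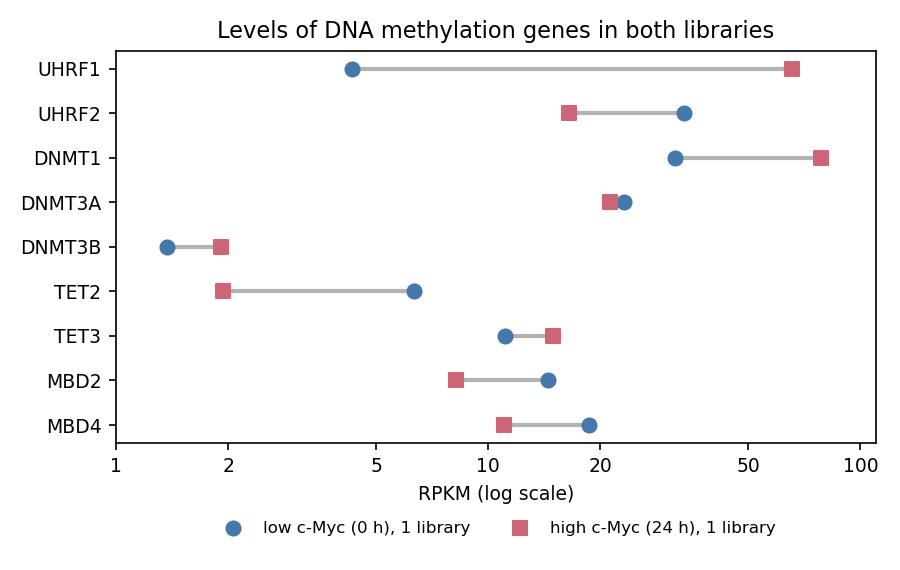
RPKM of the 9 members (log axis) in the low c-Myc library (circles, 0 h) and the high c-Myc library (squares, 24 h), 1 library each, joined by a line per gene. UHRF1 covers the widest span, from 4.31 to 65.4, DNMT1 also lies to the right at 24 h, and UHRF2, TET2, MBD2 and MBD4 lie to the left.

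The UHRF pair thus exchanged order. There were 7.77 UHRF2 for each UHRF1 per unit of transcript length in the low c-Myc library, and 3.97 UHRF1 for each UHRF2 in the high one. The ratio of UHRF1 to UHRF2, which a constant factor per library leaves unchanged, differed 30.8-fold between the libraries (log2 change 4.94). Of the summed RPKM of both genes, UHRF1 made up 11.4% at 0 h and 79.9% at 24 h.

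The de novo methyltransferases differed little. DNMT3A had an RPKM of 23.2 in the low and 21.3 in the high c-Myc library, a log2 ratio of -0.12 (interval without the pseudocount -0.163 to -0.082). DNMT3B, near the lower end of expressed genes at ranks 9541 and 9115, stood at 1.37 and 1.92, a log2 ratio of 0.37. Its interval without the pseudocount, 0.282 to 0.697, was the widest of the 8 members with a known transcript length, from about 327 and 469 reads. DNMT1 was 1.37 times as abundant as DNMT3A before release and 3.69 times after it. Within the family DNMT1 held 56.5% of the summed RPKM at 0 h and 77.2% at 24 h, DNMT3A 41.1% and 20.9%, and DNMT3B 2.44% and 1.89%.

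The TET pair moved apart. TET2 had an RPKM of 6.31 in the low and 1.94 in the high c-Myc library, 3.26-fold lower (interval 3.10 to 3.43). Its log2 ratio of -1.48 ranked 358 from the bottom, the lowest of the 9 members. TET3 stood at 11.1 and 14.9, a log2 ratio of 0.41, and kept nearly the same rank among expressed genes, 3913 and 3910. There were 1.76 TET3 for each TET2 at 0 h and 7.71 at 24 h, while the summed RPKM of the pair was 17.4 and 16.9. The remaining family member, TET1, stood at 0.210 and 0.166 and was under the expression limit.

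**Figure D2:**
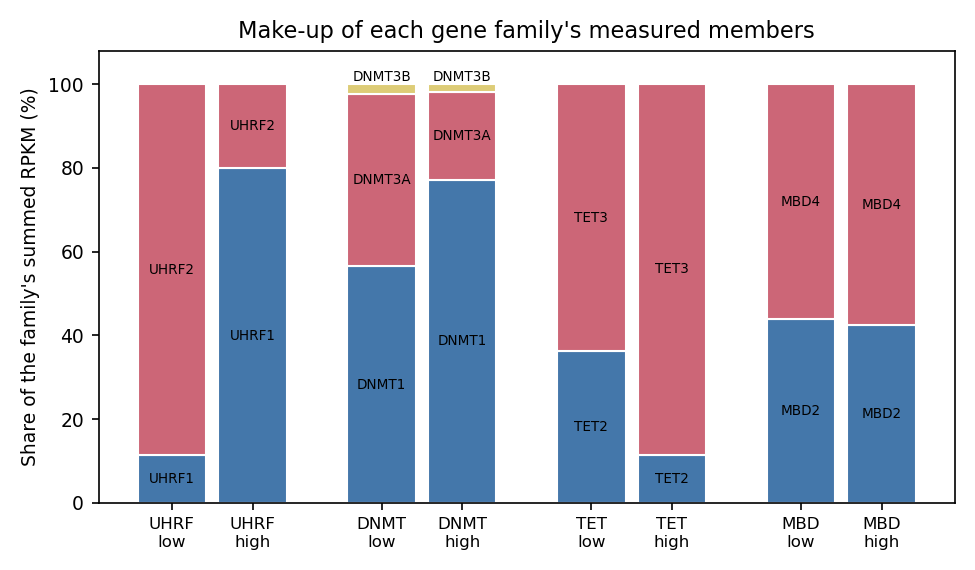
Share of each measured member in the summed RPKM of its family (stacked bars, percent), for the low and the high c-Myc library side by side, 1 library each. UHRF1 goes from 11.4% to 79.9% of its pair and TET2 from 36.2% to 11.5%, while MBD2 and MBD4 hold nearly the same shares in both libraries.

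Both MBD genes were lower within the 2-fold limit. MBD4 had an RPKM of 18.6 in the low and 11 in the high c-Myc library, 1.68-fold lower (interval 1.61 to 1.76, log2 ratio -0.73). MBD2 stood at 14.5 and 8.17, 1.78-fold lower (interval 1.71 to 1.84, log2 ratio -0.79). Of the members outside the lower limit MBD2 lay nearest to it, closely followed by MBD4, while UHRF2 was just inside. The ratio of MBD4 to MBD2 was 1.28 at 0 h and 1.35 at 24 h (log2 change 0.08, but -0.70 with the lower MBD2 row described below). In share of their sum, MBD4 held 56.1% and 57.5%.

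By the 2-fold rule on the deposited scale, 2 of the 9 members were higher (UHRF1, DNMT1), where 24.9% of all expressed genes were, and 2 were lower (UHRF2, TET2), where 9.74% were. The median log2 ratio of the members was -0.12, against 0.22 over all expressed genes. The order of levels at 0 h was UHRF2, DNMT1, DNMT3A, MBD4, MBD2, TET3, TET2, UHRF1 and DNMT3B. At 24 h it was DNMT1, UHRF1, DNMT3A, UHRF2, TET3, MBD4, MBD2, TET2 and DNMT3B, with TET2 and DNMT3B at 1.94 and 1.92. DNMT3B was last in both libraries, and DNMT3A had the same place in both orders. With 1 library per condition the spread of these levels between samples is unknown, so neighbours in either order cannot be ranked beyond counting error.

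The calls of the weaker members depended on the scale. With the RPKM sums of both libraries equalized over genes, or with quantile normalization, DNMT1 was no longer 2-fold higher (log2 ratios 0.91 and 0.65). UHRF2, TET2, MBD2 and MBD4 were then all at least 2-fold lower. Under these scalings 48.9% and 50.1% of the genes past 2-fold were higher ones, against 71.8% as deposited, and the median of all expressed genes lay at -0.13 and -0.09 in place of 0.22. Centring on that median made the share 57.3% and brought MBD2 to -1.01, so that UHRF2, TET2 and MBD2 were lower. DNMT3A went from -0.12 to -0.49 and -0.67. UHRF1 had a log2 ratio of 3.39 or higher on each of these scales.

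Base composition of the transcripts also differed between the members. The 4 lower members had GC contents of 43.4% (UHRF2), 41.3% (TET2), 45.8% (MBD2) and 42.7% (MBD4), under the median of 50.3% over expressed genes. UHRF1, DNMT1, DNMT3A and DNMT3B had 55.4% to 57.9%. After a correction for GC content the log2 ratios were 3.62 for UHRF1, 1.15 for DNMT1, -0.26 for DNMT3A and 0.09 for DNMT3B. They were -1.14 for TET2, -0.74 for UHRF2, -0.63 for MBD2 and -0.44 for MBD4, so that of the 8 members with a GC value only TET2 was still 2-fold lower. TET3 had no transcript with a GC value.

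**Figure D3:**
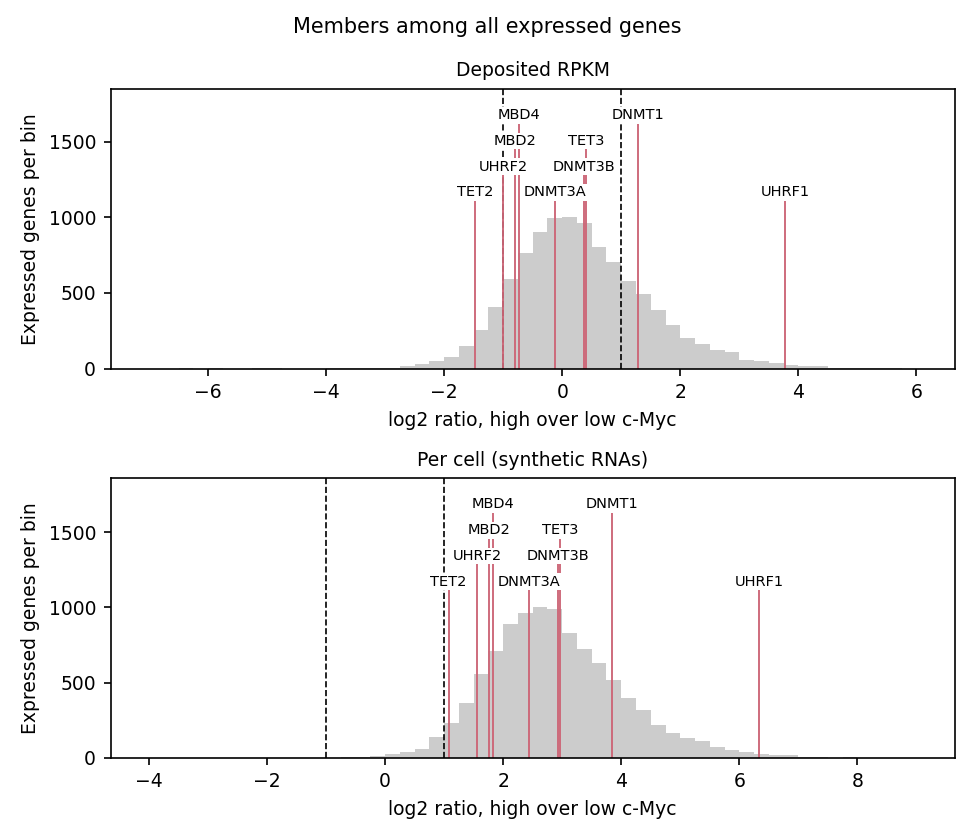
Histograms of the log2 ratio of high over low c-Myc for all 10272 expressed genes (bins of 0.25), on the deposited RPKM scale (upper panel) and per cell (lower panel), with a red line for each member and dashed lines at -1 and 1. UHRF1 lies in the right tail of both panels, TET2 in the left part, and all 9 members lie above 1 per cell.

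Per cell, all 9 members were more than 2-fold higher at 24 h, as were 97.1% of all expressed genes, and none was 2-fold lower (0.0876% of expressed genes). The per-cell values use the synthetic RNAs that had been added by cell number, of which 46 with an RPKM of 1 or more in each library gave a median log2 ratio of -2.56 (interquartile range -2.84 to -2.17). UHRF1 was 80.5-fold and DNMT1 14.4-fold higher per cell. TET3 was 7.81-fold, DNMT3B 7.61-fold and DNMT3A 5.42-fold higher. The smallest factors were 3.56-fold for MBD4, 3.40-fold for MBD2, 2.94-fold for UHRF2 and 2.10-fold for TET2. The same constant is subtracted from each log2 ratio, so the order of the genes is that of the deposited scale by construction. By the same shift, the members' median per-cell log2 ratio was 2.44, against 2.78 over all expressed genes.

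TET2 lay nearest to no change per cell. In the authors' deposited column of RPKM renormalized to the synthetic RNAs, TET2 stood at 2.93 in the low and 4.17 in the high c-Myc library, a ratio of 1.43. That is the lowest of the members' ratios in that column, and the other 8 members were past 2-fold there. UHRF1 stood at 2.0 and 141, DNMT1 at 14.4 and 173 and UHRF2 at 15.4 and 35.8. TET2 was also under 2-fold when the upper quartile of the synthetic RNAs was used for scaling, when the pseudocount of 0.5 was added to the synthetic RNAs too, and with a pseudocount of 0.1.

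The tables list 21 RefSeq rows for the 9 members, and 6 members have more than 1. Rows of a gene share exons and therefore reads, so they are not independent measurements. Both rows of UHRF1 gave a log2 ratio of 3.77 and both rows of DNMT1 one of 1.29. The 6 rows of DNMT3B lay between 0.36 and 0.39. For these 3 genes the rows gave nearly the same ratio.

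**Figure D4:**
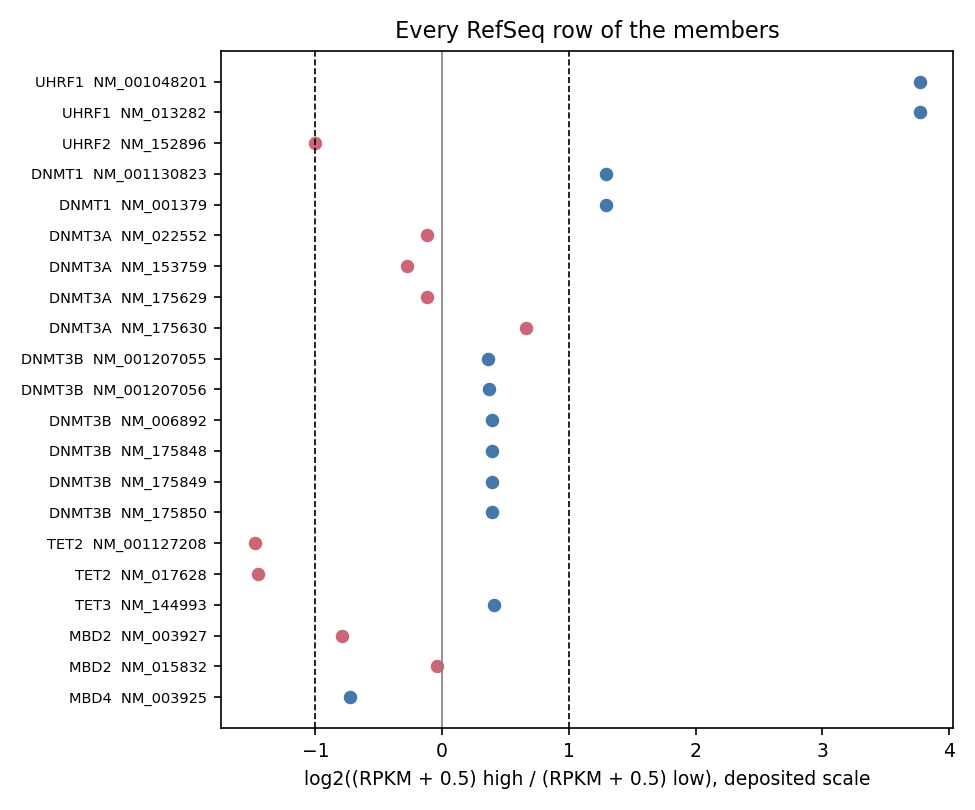
Deposited-scale log2 ratio of high over low c-Myc for each of the 21 RefSeq rows of the members, with dashed lines at -1 and 1 (colours alternate between neighbouring genes). Rows of UHRF1, DNMT1, DNMT3B and TET2 fall close together, while 1 row of DNMT3A (NM_175630, 0.66) and 1 of MBD2 (NM_015832, -0.04) stand to the right of the other rows of their genes.

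Rows of DNMT3A and MBD2 did differ. The DNMT3A row NM_175630 had an RPKM of 7.24 in the low and 11.7 in the high c-Myc library, 1.62-fold higher (interval 1.51 to 1.73). Its paired GENCODE transcript has 1775 bases, of which 625 are shared with that of the full-length row NM_022552 and 1150 are not. The other 3 rows were slightly lower at 24 h, NM_022552 and NM_175629 at -0.12 and NM_153759 at -0.28. NM_153759, which encodes the shorter DNMT3A2 protein, stood at 24.1 and 19.8. NM_175630 is a short, low row. Because it was higher at 24 h, the ratio of DNMT1 to DNMT3A changed by 0.61 on the log2 scale with it and by 1.43 with NM_022552.

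For MBD2 the full-length row NM_003927 was 1.78-fold lower, as given above. The short row NM_015832 stood at 8.85 and 8.57 (fold 0.968, interval 0.889 to 1.06), so no difference was detectable at this depth, from about 1077 and 1066 reads. The short row shares 760 of its 1182 bases with the long one and has a GC content of 61.3% against 45.8%. The ratio of the short to the long row was 0.610 at 0 h and 1.05 at 24 h. Both TET2 rows were lower, NM_001127208 by 3.26-fold and NM_017628, at 2.98 and 0.776, by 3.84-fold (interval 3.54 to 4.17).

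Of 9 partners of UHRF1 and DNMT1 in copying methylation, 6 passed 2-fold upward on the deposited scale and none downward, where 24.9% and 9.74% of all expressed genes did. The median log2 ratio was 1.35. The count upward was 4 after the GC correction, with equal RPKM sums and with quantile normalization. The 6 genes included CDCA7, which activates the remodeller HELLS at nucleosomes, at an RPKM of 8.81 and 35.8 (log2 ratio 1.96), and the replicative DNA ligase LIG1 at 14.5 and 52.9 (1.83). The deubiquitinase USP7, at 12.9 and 15.0, and CDCA7L, at 22.8 and 22.1, were within 2-fold. Of 17 expressed replication genes set beside them, 16 were higher and none was lower. Their median was 1.99, from 0.55 for MKI67 to 3.25 for the origin licensing factor CDT1 and 2.81 for the helicase subunit MCM4. UHRF1 lay above all 17 of these genes, and DNMT1 lay below their median.

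Genes that act after the TET enzymes or beside MBD4 fell on both sides. Of 14 expressed genes of base excision, 5 were higher and 1 was lower (24.9% and 9.74% of all expressed genes), and the median log2 ratio was 0.71. The glycosylases NTHL1, at 5.75 and 87.2 (3.81), and UNG, at 3.72 and 55.0 (3.72), had the highest ratios, while the glycosylase SMUG1, at 12.8 and 7.61, had one of -0.71 and the repair polymerase POLB, at 9.43 and 4.17, one of -1.09. TDG, which excises the oxidized bases that TET enzymes make, stood at 1.95 and 3.44. After the GC correction NTHL1 was at 2.83, UNG at 3.73 and POLB at -0.86, so that none of the genes with a GC value was then 2-fold lower.

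Over the 81 expressed genes of all these lists, NTHL1, UNG and CDT1 (3.25) had the log2 ratios nearest to that of UHRF1. Nearest to DNMT1 were NEIL2 at 1.29, HELLS at 1.35 and GINS3 at 1.38. A pattern over 2 libraries is 1 ratio, so this is nearness in a single number. It holds in full without the GC correction only. After the correction DNMT1 was at 1.15, GINS3 at 1.48 and GINS4 at 1.15. UHRF1 was then at 3.62 and UNG still lay near it at 3.73, while MCM4 was at 2.91, NTHL1 at 2.83 and CDT1 at 2.10.

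Other readers of methylated CpG showed no common direction. Of 7 expressed readers, 1 was higher and 1 lower (24.9% and 9.74% of all expressed genes), with a median log2 ratio of 0.15. MBD3, the relative of MBD2 found in the same type of repressor complex, stood at an RPKM of 29.1 and 196, a log2 ratio of 2.73, against -0.79 for MBD2. MBD5, at 2.66 and 0.710 (-1.39), and ZBTB33, at 5.74 and 3.10 (-0.79), had the lowest ratios, and MBD1 stood at 30.4 and 44.1. Of the 11 subunits of NuRD, the complex that holds MBD2 or MBD3, 3 were higher and 1 was lower, where 24.9% and 9.74% of all expressed genes were. The median was 0.08. MTA1 had a log2 ratio of 1.76 and HDAC2 one of 1.63, against -1.09 for MTA3 and -0.87 for GATAD2B, and after the GC correction MTA3 was at -0.94 and no subunit was lower. MBD3 had no GC value, so its ratio is not corrected.

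**Figure D5:**
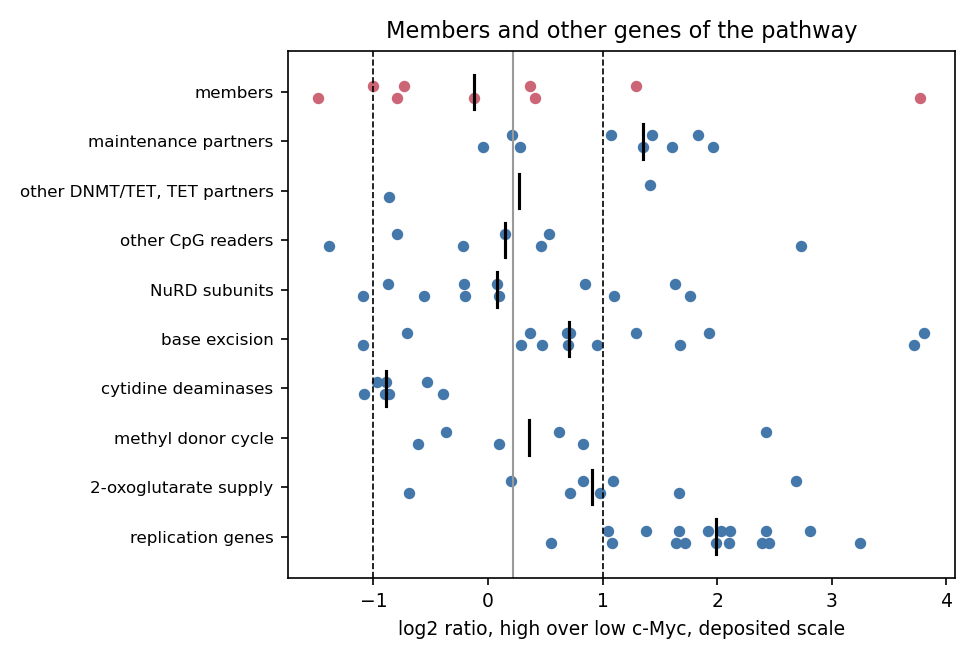
Deposited-scale log2 ratio of each member (top line, red) and of each expressed gene of the other lists (blue), with a black bar at each list's median, dashed lines at -1 and 1 and a grey line at the median of all expressed genes, 0.22. Maintenance partners (median 1.35) and replication genes (1.99) lie mostly right of 1, and the cytidine deaminases (-0.89) lie left of 0.

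Of the other genes of the DNMT and TET families and the TET partners, 2 of 6 were expressed. OGT, the glycosyltransferase that binds TET2 and TET3, stood at an RPKM of 76.2 and 41.9 (log2 ratio -0.86), and CXXC5 at 44.5 and 119 (1.41). DNMT3L, the catalytically inactive partner of the de novo enzymes, was listed at 0 in both libraries, and TRDMT1 stood at 0.702 and 0.660.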

How the data were processed

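The 2 poly(A)+ libraries were made by a dUTP method with 15 PCR cycles, per the labels' protocols. Bowtie and hg18 are named by the submitters' processing notes. Counting tool, annotation and strand rule: not given in the sources used here, so overlapping genes cannot be separated. The authors deposited RPKM values per RefSeq row, per the file headers, and an RPKM column renormalized to synthetic RNAs, whose method is not given.

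A gene was called by a log2((high + 0.5)/(low + 0.5)) at or beyond 1 or -1, with no test. Per-cell values subtract the median of the synthetic RNAs' log2 ratios, taken with no pseudocount. Depth came from the steps of low values: RPKM times GENCODE 29 transcript length implied about 103000000 and 105250000 reads, with 49.4% and 46.4% of transcripts with up to 20 reads within 0.05 of a whole number (10% by chance). Intervals rest on these approximate reads, and PCR copies are not independent molecules. GC content, known for 9948 expressed genes, was corrected with a lowess curve of span 0.3. Promoters came from RefSeq (GRCh38.p14), used for sequence only.

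The members and lists were chosen with earlier results of these data known. Named are all members, the 2 highest and 2 lowest expressed genes of each list, and the 3 genes of the lists nearest in ratio to UHRF1 and to DNMT1, except some genes that are not reported here. TDG, TET1, DNMT3L and TRDMT1 were added for their roles after their values were seen. The alternatives were other pseudocounts, filters, rows, scalings and synthetic RNA summaries. The steps were tested on simulated data. The software was pandas 2.3.3, scipy 1.17.1, statsmodels 0.14.6, numpy 2.4.6 and matplotlib 3.10.9 under Python 3.11.15.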

Additional observations from a re-analysis of the deposited data

How the results depend on the processing

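On the deposited scale 2 members were higher and 2 lower. The count of higher members was 1 with equal RPKM sums and 1 with quantile normalization. The count of lower members was 1 with a pseudocount of 1, 1 after the GC correction, and 4 with a 1.5-fold rule, with equal RPKM sums and with quantile normalization. UHRF2 left the 2-fold rule with a pseudocount of 1 (-0.98). The log2 ratio of UHRF1 lay between 3.39 and 3.89 over 12 settings, that of DNMT1 between 0.65 and 1.30, and that of TET2 between -1.78 and -1.14. For DNMT3A it lay between -0.67 and 0.66, where the highest value comes from the row NM_175630. Per cell, 8 or 9 members were 2-fold higher and none lower under all alternatives run. After the GC correction the count was 8 because TET3 had no GC value, and all 8 members with one were past 2-fold. The per-cell log2 ratio of TET2 lay between 0.45 and 1.42. The setting with the pseudocount on the synthetic RNAs and those with their quartiles were chosen after seeing the data. The 1.5-fold rule changes the limit of a call and leaves each ratio as it was. The pseudocount, row, GC, scaling and synthetic RNA alternatives change the ratios by their construction. Which setting is nearest to the true ratio was not tested. No paired analysis was possible because each group had 1 library. Depth limits DNMT3B most, with about 327 reads at 0 h.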

Other observations

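The cytidine deaminases, which convert cytosine to uracil in DNA or RNA, lay below the typical gene. On the deposited scale 1 of 7 expressed genes of this list was at least 2-fold lower and none higher. Of all expressed genes, 9.74% were lower and 24.9% higher. The list's median log2 ratio was -0.89, against 0.22 over all expressed genes. APOBEC3H had a ratio of -1.08 and APOBEC3F one of -0.97, against -0.39 for APOBEC3C and -0.53 for APOBEC3B. The count of lower genes was 0 with a pseudocount of 1 and 2 after the GC correction. It was 5 with a 1.5-fold rule, after centring on the median, with equal RPKM sums and with quantile normalization. Over all 10272 expressed genes the count of lower ones also rose in these 4 settings, from 1001 to 2059, 1516, 1817 and 1768. The APOBEC3 genes are related in sequence, and how reads that match several genes were counted is not given. Reads could therefore be split between some of them.

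Genes that supply the methyl donor or the TET cofactor were mixed. AHCY, which clears the methyltransferase inhibitor S-adenosylhomocysteine, had an RPKM of 20.8 in the low and 114 in the high c-Myc library (log2 ratio 2.43). It was the 1 higher gene of 6 in the methyl donor cycle, and none was lower, against 24.9% and 9.74% of all expressed genes. MAT2A, which makes S-adenosylmethionine, stood at 34.8 and 62.2 and MAT2B at 19.1 and 14.6. After the GC correction MAT2A was at 1.0, so that 2 genes of this list were then higher. Of 8 genes of 2-oxoglutarate supply and 2-hydroxyglutarate removal, 3 were higher and none lower, against 24.9% and 9.74% of all expressed genes. The count of higher genes was 2 after the GC correction, and with equal RPKM sums and quantile normalization it was 2 with 1 gene lower. D2HGDH, which removes D-2-hydroxyglutarate, an inhibitor of TET enzymes, had a log2 ratio of 2.69 (1.26 after the GC correction). IDH1 stood at -0.69 and IDH3G at 0.20.

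Germline genes known to be held silent by promoter methylation stayed low in both libraries. Of 16 such genes, 15 were found in the tables and none had a mean RPKM of 1. At 0 in both libraries were 10 of them, and the highest level was that of PRAME, 0.503 in the low and 0.206 in the high c-Myc library. How reads that match several places were counted is not given, so a listed 0 does not by itself show that RNA was absent.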
